A study of Mus musculus with 27 samples.

Results

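The dorsal optic stalk (OS) was compared with the region of retinal ganglion cell (RGC) axons in control mouse embryos at embryonic day 14 (E14). These are 8 of the 27 libraries of the study, 4 from the dorsal OS and 4 from the RGC axon region, and they were chosen by the region and the genotype in their labels. The pieces were cut by laser-capture microdissection from frozen head sections, and their RNA was amplified and sequenced (Geo-seq). The other 19 libraries are the 4 ventral OS pieces of the same controls and the dorsal, ventral and axon pieces of 5 Smarcc1-DCT-cKO embryos. The mice were on a C57Bl6/J background. Controls were littermates without Dct-Cre, and the mutants carried Dct-Cre with both Smarcc1 alleles floxed, so that Cre under the pigment gene promoter Dct removed this chromatin remodelling subunit in the pigmented lineages and the OS. Control 1 belonged to batch A and controls 2 to 4 to batch B, and the dorsal and axon libraries with the same number were taken as one embryo. The study collected 3 regions from each embryo, but the labels of single libraries give only the number.

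The OS is the tube of neuroepithelium between the eye cup and the brain, and its cells later form the astrocytes of the optic nerve. At its dorsal side it adjoins the presumptive pigment epithelium and the mesenchyme around the eye. RGC axons grow through the stalk while the cell bodies of these neurons stay in the retina, so a piece cut among the axons holds axons, which carry some mRNAs of their own, together with the glial progenitors that surround them.

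The libraries held 14.9 to 24.0 M counts (M, 1e6), so that 1 count equals 0.0416 to 0.0673 counts per M counts (CPM). Genes with at least 1 count numbered 14132 ± 2606 in the dorsal OS and 12143 ± 1797 in the axon region (SD, n = 4 each), a difference within the spread of the libraries (exact permutation p 0.314, two-sided). On a principal component plot of these 8 libraries, with 24.8% and 20.6% of the variance on the axes, dorsal control 3 and axon controls 1 and 3 lay apart from the rest. The regions overlapped on the first axis. On the second axis every dorsal library (2.19 to 116) lay above every axon library (-84.3 to -23.5). Dorsal control 3 also had the lowest number of genes of the dorsal libraries, 10881. The glial progenitor genes Vim (1344 to 2575 CPM in the dorsal OS, 1695 to 3943 in the axon region) and Sox9 (237 to 286 and 103 to 301) were counted in all 8 libraries. Their ranges overlapped, so these 2 genes do not tell the regions apart. Pax2, a transcription factor of the OS, stood at 0.826 CPM in dorsal control 3 and at 33.1 to 39.2 CPM in the other dorsal libraries. In a piece of tissue, fewer cells of a type and less RNA per cell cannot be told apart.

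Between the dorsal OS and the axon region 11 of 15899 genes tested were called, that is, had a Benjamini-Hochberg adjusted p under 0.05 in edgeR's quasi-likelihood test and an absolute log2 fold change over 0.58. Of these 10 were higher in the axon region (0.0629% of the genes tested) and 1 in the dorsal OS (0.00629%). The axon-high genes encode a motor of axonal transport (Kif1a), 2 proteins of glial progenitors (Fabp7 and Nes), the ribosomal RNAs of mitochondria (mt-Rnr1 and mt-Rnr2), a respiratory chain subunit (Cox6a1), both ferritin chains (Fth1 and Ftl1), a cyclin (Ccnd2) and an autophagy regulator (Trp53inp2). The dorsal-high gene was Ltbp1, which encodes a matrix protein that stores latent TGF-beta. All 11 differed in the same direction in 4 of 4 embryos and did not overlap between the regions. Over all genes tested every axon library lay above every dorsal library for 1.5%, and the reverse held for 2.91%. Because the 11 were chosen by their p-values in these same libraries, the lack of overlap is not separate evidence. In 9 of the 11 the mean of the ventral OS lay between the means of the other 2 regions, which held for 39.9% of all genes tested. The 11 were chosen for a difference between these 2 regions, and a wide gap takes in another mean more easily. The 39.9% is thus not a matched comparison, and no conclusion on the ventral OS is drawn from it.

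With the embryo as a block 2 genes were called (0.0126%), mt-Rnr2 and the nuclear noncoding RNA Malat1, and the other 10 had adjusted p-values from 0.0563 to 0.346. Within batch B alone 6 of 15697 genes were called, 3 of them among the 11, and batch A held 1 library of each region. Without dorsal control 3 the number called was 0, with 1376 genes at an unadjusted p under 0.05 in edgeR. DESeq2, the tool of the study, called 561 genes, 470 higher in the dorsal OS and 91 in the axon region. For limma voom it was 52, of which 44 and 8. Most genes called by these tools were thus dorsal-high, unlike most of the 11. With all 8 libraries 1176 genes (7.4%) had an unadjusted p under 0.05 in edgeR in the dorsal direction and 498 (3.13%) in the axon direction. The fold changes below are dorsal over axon on the log2 scale, so a negative value means a higher level in the axon region. The median over all genes tested was 0.29 (0.48 with the block), and over the 2079 genes with a mean of at least 100 CPM it was -0.23. It shifted by scaling to 0.40 and -0.12 (RLE) and to 0.49 and -0.02 (total counts alone).

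**Figure D1:**
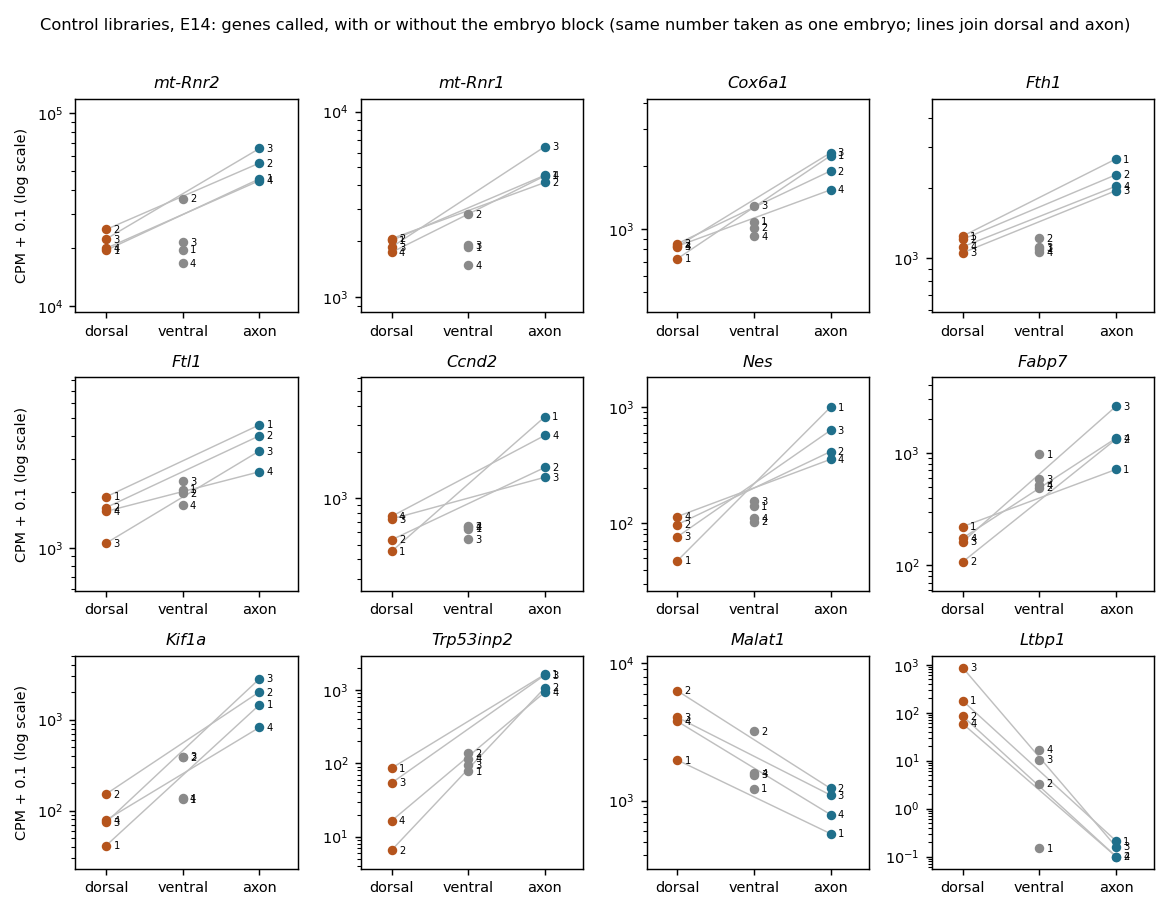
Level of the 11 called genes and of Malat1 in each control library, as CPM + 0.1 on a log axis, in the dorsal OS, the ventral OS and the axon region. Each point is a library with its embryo number, and lines join the dorsal and axon libraries of the same number. The dorsal and axon points do not overlap in any panel.

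Kif1a (chromosome 1, 93015464 to 93101951, mm10) encodes a kinesin that moves synaptic vesicle precursors along axons. It stood at 41.2, 152, 74.3 and 78.7 CPM in dorsal controls 1 to 4 and at 1455, 2022, 2814 and 822 CPM in axon controls 1 to 4. The lowest axon library thus lay far above the highest dorsal library. The log2 fold change was -4.60 ± 0.47 (SE), a level 24.3-fold higher in the axon region (adjusted p 0.00207, 0.0563 with the block). Kif5c, a conventional kinesin heavy chain enriched in neurons, had 0.0416, 86.2, 45.7 and 7.20 CPM in the dorsal OS against 184, 449.5, 627 and 189 CPM in the axon region. It did not overlap either but was not called (-3.62 ± 1.24, adjusted p 0.386). The 15 kinesin and dynein genes listed, all tested, did not move as a group. Their median was -0.08, 7 were higher in the dorsal OS, and Kif1a was the only one called. Their summed level was 869.9, 1444, 1066 and 991 CPM in the dorsal OS and 2695, 3555, 4301 and 2054 CPM in the axon region, and Kif1a alone held most of the difference. The ubiquitous kinesin Kif5b ranged from 167 to 393 CPM and from 261 to 416 CPM. Klc2, a kinesin light chain, leaned the other way, with 0.374, 10.9, 0 and 6.33 CPM in the dorsal OS and 1 count in all axon libraries together, a ratio of 329 (exact Poisson 95% interval 59.004 to 12985), and was not called (adjusted p 0.386).

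Trp53inp2 (chromosome 2, 155381059 to 155389850) encodes a regulator of autophagy, and its transcript is known to be abundant in axons of sympathetic neurons. The dorsal levels were 85.996, 6.45, 53.9 and 16.4 CPM and the axon levels 1634, 1076, 1605 and 938 CPM. Every axon library lay far above every dorsal library, with a log2 fold change of -5.19 ± 0.72 (SE; 36.6-fold, adjusted p 0.0141, 0.110 with the block). Among 18 genes of neurofilaments and microtubule-binding proteins, 17 were tested and 0 were called. Of the 17, 12 were higher in the axon region and 5 in the dorsal OS. At an unadjusted p under 0.05, 3 were higher in the axon region (3.13% of all genes tested) and 0 in the dorsal OS (7.4%), and the median was -0.63. These 3 were Nefm, Map1b and Stmn1. Nefm, the medium neurofilament chain, had 9.40, 113, 3.89 and 11.2 CPM in the dorsal OS and 1253, 767, 858 and 949 CPM in the axon region. The dorsal library of control 2 was highest of its group and still below every axon library (-5.07 ± 0.91, adjusted p 0.0981, 0.257 with the block). Of its exonic bases 19.2% are shared with a neighbouring gene. Map1b, a microtubule-associated protein of growing axons, had 259.7, 905, 203 and 319 CPM against 1832, 1316, 2165 and 1778 CPM, again without overlap (-2.32 ± 0.40, adjusted p 0.0816). Stmn1, a microtubule-destabilising stathmin, had 628, 668, 591 and 378 CPM against 956, 776, 730.5 and 814 CPM (-0.73 ± 0.25, adjusted p 0.386).

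Some other neuronal genes did not follow this direction. Tubb3, the neuronal beta-tubulin, had 0, 249, 152 and 0 CPM in the dorsal OS and 19.2, 34.6, 0 and 0.183 CPM in the axon region. Dcx, a microtubule-binding protein of young neurons, had 0.0416, 365, 73.8 and 0 and 2.78, 46.97, 0 and 0 CPM. In both genes dorsal controls 2 and 3 held nearly all of the dorsal signal. The same held for Elavl4, an RNA-binding protein of neurons, at 0.291, 51.2, 70.8 and 0 CPM in the dorsal OS and 1 count in all axon libraries, a ratio of 2289.7 (exact Poisson 95% interval 411 to 90437) with an adjusted p of 0.386.

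Of 16 genes of RGC identity 12 were tested and 0 called. An unadjusted p under 0.05 was found for 1 in the dorsal direction (7.4% of all genes tested) and 1 in the axon direction (3.13%). The transcription factors Pou4f2, Pou4f3, Isl2 and Atoh7, which specify RGCs in the retina, had 0 counts in all 8 libraries. Sncg, gamma-synuclein, an abundant RGC protein, had 21.3, 0, 0 and 0 CPM in the dorsal OS and 589, 573, 519 and 122 CPM in the axon region. It was thus at 0 in 3 of 4 dorsal libraries and above 100 CPM in every axon library, but its adjusted p was 0.386 (0.443 with the block). Thy1, a surface protein of RGCs, was counted only in axon control 2, at 12.3 CPM. The median of the list was 1.56 (1.19 with genes absent from a region set at their bound), and the summed level was 149, 1999, 1329 and 329 CPM in the dorsal OS and 988, 1044, 924 and 394 CPM in the axon region, with overlap. Sox11, a transcription factor of young neurons, made up much of the dorsal sum, at 113, 1269.6, 889.8 and 218 CPM against 271, 314, 384 and 207 CPM.

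Axon adhesion and guidance genes (16 of 16 tested) had a median of 1.30 (0.89 with bounds), 13 were higher in the dorsal OS, and 0 were called. At an unadjusted p under 0.05 there were 2 in the dorsal direction (7.4% of all genes tested) and, with the block, 0 (1.59% of all genes). Robo1, a receptor for Slit guidance cues, had 33.4, 174, 288 and 126 CPM in the dorsal OS and 34.7, 16.04, 64.6 and 25.8 CPM in the axon region, with overlap (1.92 ± 0.77, adjusted p 0.386). Cntn2, an axonal adhesion protein, had 0, 0.434, 79.5 and 4.85 CPM in the dorsal OS and 0 counts in the axon region, a level at least 131-fold higher that rested on control 3 (adjusted p 0.386). Nrp1, a semaphorin receptor of axons and vessels, did not overlap but nearly met, at 76.9, 105, 27.2 and 83.2 against 5.73, 5.84, 4.77 and 27.1 CPM. Of 15 presynaptic genes 11 were tested, and 0 reached an unadjusted p under 0.05 in either direction (median 1.12). Snap25, a SNARE protein of synaptic vesicle release, ranged from 0.333 to 324 CPM in the dorsal OS and from 0 to 36.8 CPM in the axon region. Syn1, a synaptic vesicle protein, was counted only in dorsal control 2, at 17.4 CPM.

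Both Fabp7 and Nes, which were called, mark neural progenitors with glial character. Fabp7 (chromosome 10, 57784881 to 57788450), the brain lipid-binding protein of radial glia, had 221, 108, 162 and 175 CPM in the dorsal OS and 711, 1319.7, 2584 and 1346 CPM in the axon region. The log2 fold change was -3.37 ± 0.40 (SE; 10.3-fold, adjusted p 0.00444, 0.183 with the block). The ventral OS stood at 969.7, 490.4, 581 and 515 CPM, above every dorsal library, and in embryo 1 also above the axon library. Nes (chromosome 3, 87971078 to 87980451), the progenitor intermediate filament nestin, had 47.4, 97.1, 76.2 and 114 CPM in the dorsal OS and 991, 412, 627 and 353 CPM in the axon region. The lowest axon library exceeded the highest dorsal one (-3.07 ± 0.42, adjusted p 0.0141, 0.346 with the block).

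The other OS and astrocyte progenitor genes were less uniform. Of 18 listed and tested, with Fabp7 and Nes among them, 5 were higher in the dorsal OS, and the median was -0.60. An unadjusted p under 0.05 was reached by 5 in the axon direction (3.13% of all genes tested), Fabp7 and Nes included. In the other direction 0 did (7.4%). Besides Fabp7 and Nes, Id3, an inhibitor of differentiation factors, had 979, 397, 606 and 419 CPM in the dorsal OS and 730.1, 1406, 1153 and 913 CPM in the axon region, with dorsal control 1 inside the axon range (-0.99 ± 0.33, adjusted p 0.386). The transcription factors that define OS and astrocyte fate overlapped between the regions. Pax2, which patterns the stalk, had 38.8, 33.1, 0.826 and 39.2 CPM in the dorsal OS and 21.98, 21.8, 12.2 and 5.40 CPM in the axon region (0.63 ± 1.67, adjusted p 0.998), and its direction turned in 1 alternative setting. Sox2, a factor of neural progenitors, had 103, 120.1, 25.5 and 54.7 and 40.2, 105, 190.2 and 28.6 CPM (-0.52 ± 0.79), and turned in 2. Sox9, a gliogenic factor, had 244, 263, 237 and 286 and 103, 301, 184 and 133 CPM (0.32 ± 0.39). Hes1, a Notch target that keeps progenitors undifferentiated, had 259.7, 325, 283 and 187 and 137, 194, 191 and 303 CPM (0.17 ± 0.36). The adjusted p of these 4 ranged from 0.951 to 0.998. The summed level of the list, Fabp7 and Nes included, was 5727, 5576, 8117 and 5645 CPM in the dorsal OS and 6429.7, 9659, 12675 and 7913 CPM in the axon region. It was higher in the axon region in 4 of 4 embryos, but in embryo 1 this direction rested on Fabp7 (221 against 711 CPM) and Nes (47.4 against 991 CPM).

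Ccnd2 (chromosome 6, 127125162 to 127152193), cyclin D2, which drives the entry into the cell cycle, was called with 452, 537, 733 and 763 CPM in the dorsal OS and 3387, 1586, 1369 and 2563 CPM in the axon region. The difference was -2.04 ± 0.30 (SE; 4.12-fold, adjusted p 0.0238, 0.268 with the block). Of 17 other proliferation genes 16 were tested, and 0 were called. Their median was -0.62, and 4 had an unadjusted p under 0.05, all in the axon direction (3.13% of all genes tested). Pcna, the replication clamp, had 268, 146, 171 and 289 CPM against 402, 364, 354 and 517 CPM without overlap, as every axon library lay above every dorsal library for 1.5% of all genes tested (-1.10 ± 0.32, adjusted p 0.386). Birc5, which encodes the mitotic protein survivin, had 373, 261, 194 and 369 CPM against 564, 419, 378 and 744 CPM (-1.01 ± 0.31, adjusted p 0.386). The axon libraries of both genes lay above all dorsal libraries. Mcm3, part of the replicative helicase, had 128, 8.56, 59.8 and 121 CPM against 276, 319.9, 216 and 475 CPM (-2.20 ± 0.65, adjusted p 0.386). The retinal progenitor list (8 of 10 tested) had a median of -1.18. In the axon direction 2 of its genes had an unadjusted p under 0.05 with the block (2.34% of all genes tested), and 4 without it (3.13%). Among them Sfrp2, a secreted Wnt modulator, had 67.99, 17.2, 37.1 and 29.003 and 102, 60.3, 173 and 271 CPM (-2.18 ± 0.70, adjusted p 0.386). Fgf15, a growth factor of retinal progenitors, was at 5.32, 0, 0 and 0 CPM in the dorsal OS and 2.00, 149.8, 295 and 106 CPM in the axon region.

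Transcripts from mitochondrial DNA took a larger share of the axon libraries. They made up 5.13% ± 0.50 of the counts in the dorsal OS and 10.9% ± 3.17 in the axon region (SD, n = 4 each). The share was lower in the dorsal OS in 4 of 4 embryos, and its exact permutation p of 0.0286 (two-sided) is the smallest that 70 assignments allow. As pairs the exact p was 0.125, the smallest that 16 sign changes allow. The 2 ribosomal RNAs of mitochondria carried more of the difference than the other genes. mt-Rnr2 (mitochondrial genome, 1094 to 2675), the large one, had 19437, 24917, 22247 and 19902 CPM in the dorsal OS and 45592, 55039, 65517 and 44642 CPM in the axon region. The regions were well apart and the spread within each was narrow, at -1.50 ± 0.14 (SE; adjusted p 0.00207, 0.0101 with the block). mt-Rnr1 (mitochondrial genome, 70 to 1024), the small one, had 2021, 2066, 1862 and 1745 CPM and 4543, 4152, 6485 and 4508 CPM (-1.57 ± 0.19, adjusted p 0.00444, 0.0563 with the block). Without both the share was still 2.85% against 5.44% (exact permutation p 0.0286, two-sided).

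Of 15 mitochondrial genes listed 10 were tested, and 10 of 10 were higher in the axon region, with a median of -1.03. In this direction 8 had an unadjusted p under 0.05 (3.13% of all genes tested), and 9 with the block (2.34%). mt-Co1, a cytochrome c oxidase subunit, had 3073, 4675, 3781 and 4031 CPM and 5167, 9059, 8564 and 5072 CPM without overlap (-1.05 ± 0.21, adjusted p 0.198). mt-Cytb, cytochrome b, ranged from 8011 to 10453 CPM in the dorsal OS and from 13129.7 to 36279.6 CPM in the axon region. The other 5 (mt-Nd4l, mt-Co2, mt-Co3, mt-Atp6 and mt-Atp8) held at most 1 count in any of the 8 libraries, so these counts do not measure them. Because counts are shares of a total, a higher mitochondrial share lowers the share left for other genes. With mitochondrial genes left out 9 genes were called, all 9 among the 11. The rest of the 11, mt-Rnr1 and mt-Rnr2, were themselves left out of that fit.

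Nuclear genes of the respiratory chain leaned the same way. Cox6a1 (chromosome 5, 115345642 to 115348981), a subunit of cytochrome c oxidase, was called, with 721, 851, 825 and 827 CPM in the dorsal OS and 2234, 1892, 2309 and 1537 CPM in the axon region. Its dorsal libraries differed little among themselves, and the fold change was -1.52 ± 0.20 (SE; adjusted p 0.0126, 0.122 with the block). Of 19 further nuclear-encoded subunits, all tested, 0 were called, and the median was -0.58. An unadjusted p under 0.05 was found for 9 in the axon direction (3.13% of all genes tested) and 0 in the other (7.4%). Cox4i1, another subunit of the same enzyme, had 813, 841, 692 and 784 and 1567, 1434, 1641 and 1240.0 CPM without overlap (-1.12 ± 0.19, adjusted p 0.0791). Ndufb8, of complex I, had 449, 577, 546 and 559 and 1093, 1057, 1012 and 692 CPM (-1.07 ± 0.23, adjusted p 0.313). Not every subunit leaned so. Atp5a1, of ATP synthase, had 877, 591, 446 and 787 and 635, 572, 541 and 814 CPM, and Ndufs1, of complex I, 143, 158, 88.3 and 64.9 and 72.4, 94.2, 2.03 and 0 CPM. Mpv17, an inner mitochondrial membrane protein needed to maintain mitochondrial DNA, was higher in the dorsal OS, at 259, 262, 260.2 and 191 CPM against 54.4, 64.3, 53.6 and 42.6 CPM, with no overlap and no call (1.98 ± 0.43, adjusted p 0.313). Ckb, brain creatine kinase, which buffers ATP, had 667, 512, 253 and 591 and 1052, 1292, 934 and 1466 CPM (-1.43 ± 0.28, adjusted p 0.176).

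Both chains of ferritin, the protein shell that stores iron, were called. Fth1 (chromosome 19, 9980598 to 9985098), the heavy chain, had 1245, 1206, 1057 and 1121 CPM in the dorsal OS and 2663, 2279, 1949 and 2036 CPM in the axon region (-1.15 ± 0.17, adjusted p 0.0263, 0.0563 with the block). Ftl1 (chromosome 7, 45457944 to 45459884), the light chain, had 1879, 1645, 1059 and 1569.6 CPM and 4583, 4004, 3318 and 2563 CPM (-1.45 ± 0.22, adjusted p 0.0308, 0.149 with the block). These 2 had the highest adjusted p-values of the 11, and 34.6% of the exonic bases of Ftl1 are shared with other genes, whose reads cannot be told apart here.

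All 18 genes of cytosolic ribosomal proteins listed were tested, and 18 of 18 had a higher fitted level in the axon region, with 0 called. At an unadjusted p under 0.05 there were 13 (3.13% of all genes tested in this direction), and 18 with the block (2.34%). The median was -0.75, against 0.29 over all genes and -0.23 over genes of at least 100 CPM. Their summed level was 15365, 11315, 15875 and 11310.4 CPM in the dorsal OS and 26708, 16932, 17895 and 18372 CPM in the axon region, without overlap. Rpl32, of the large subunit, had 629.8, 531, 604 and 516 CPM and 1697, 1032, 955 and 1239.9 CPM (-1.31 ± 0.24, adjusted p 0.111), and 20.04% of its exonic bases are shared. Rps19, of the small subunit and not in the list, had 866, 828, 958 and 677 CPM and 2634, 1420.4, 1803 and 1347 CPM (-1.32 ± 0.26, adjusted p 0.172). Both were without overlap.

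Transcripts of these genes are known to start at a C within a run of pyrimidines (the 5′ TOP), which controls their translation. The 30 bases around the RefSeq start site (GRCm38.p6, 15 on each side) of the 4 list members whose longest run spans that site are given to show the element, with the longest run of each window in capitals (a run is a C followed by 4 or more bases that are each C or T). The windows are Rps6 at chr4:86857353-86857382 (minus strand), Rps18 at chr17:33955651-33955680 (minus strand), Rps24 at chr14:24490663-24490692 (plus strand) and Rplp2 at chr7:141447636-141447665 (plus strand).
Rps6: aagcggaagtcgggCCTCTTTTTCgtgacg
Rps18: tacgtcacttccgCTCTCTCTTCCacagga
Rps24: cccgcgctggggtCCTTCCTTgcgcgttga
Rplp2: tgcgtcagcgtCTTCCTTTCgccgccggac
Of the 18 genes 12 had a start site in the table, with 14 windows, and 8 of the 14 held a run on the transcribed strand (57.1%), against 36.4% of all 32851 windows of this length. A run is a match of letters, and whether these transcripts start at it was not measured.

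**Figure D2:**
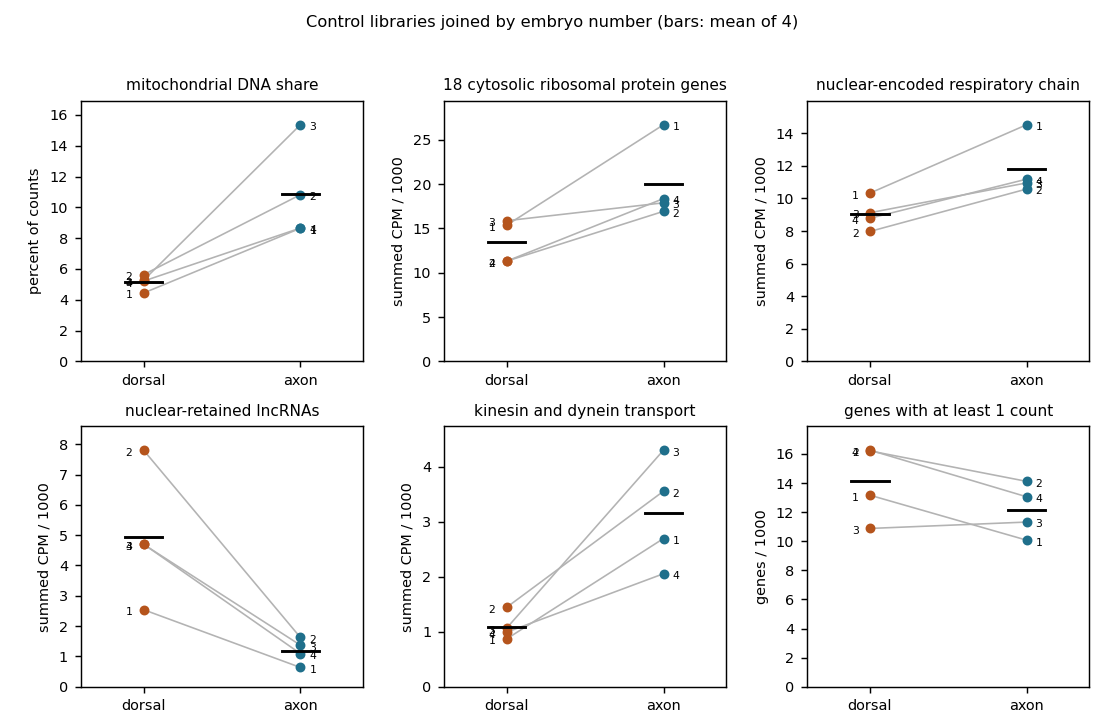
Mitochondrial DNA share of counts, summed level of 4 gene lists (CPM / 1000) and number of genes with at least 1 count (/ 1000) in each control library, all axes from 0. Points are libraries with their embryo number, lines join dorsal and axon libraries of one number, and bars are means of 4. In the first 5 panels the regions do not overlap, with the nuclear-retained RNAs alone higher in the dorsal OS, and in the last they overlap.

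Of 9 long noncoding RNAs that stay in the nucleus 8 were tested, 7 had a higher fitted level in the dorsal OS, 0 were called, and the median was 1.74. At an unadjusted p under 0.05 there were 2 in the dorsal direction (7.4% of all genes tested), and 4 with the block (1.59%). Malat1 (chromosome 19, 5795690 to 5802672), an abundant RNA of nuclear speckles, had 1976, 6305, 4044 and 3779.6 CPM in the dorsal OS and 575, 1228, 1098 and 791 CPM in the axon region. The ranges did not overlap, and within each embryo the dorsal library was higher. The difference was 1.91 ± 0.32 (SE), with an adjusted p of 0.0581 and, with the block, of 0.0403, so of these 2 fits it was called in the blocked one. Over 26 alternatives the adjusted p was 7.44e-05 to 0.984, and it was under 0.05 in 7, of which 6 had no block. Meg3, an imprinted noncoding RNA, had 224, 818, 241 and 315 CPM against 16.8, 174, 34.4 and 106 CPM without overlap (2.08 ± 0.66, adjusted p 0.386). Rian, from the same imprinted locus, had 164, 132, 43.01 and 166 CPM against 39.1, 33.8, 2.68 and 45.5 CPM (1.87 ± 0.89, adjusted p 0.386). Neat1, the RNA of paraspeckles, was the exception, with 0.125, 2.79, 18.5 and 17.97 CPM against 0, 3.16, 59.7 and 11.2 CPM. The summed level was 2542, 7805, 4697 and 4705 CPM in the dorsal OS and 637, 1626, 1372 and 1093 CPM in the axon region. Malat1 alone made up most of this sum in every library.

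Messenger RNAs for nuclear proteins did not follow. Of 17 genes of nuclear pore, splicing and chromatin factors, all tested, 9 were higher in the dorsal OS, and the median was 0.02. With the block 0 had an unadjusted p under 0.05, and without it 1 did, in the dorsal direction (7.4% of all genes tested). This was Srsf5, a splicing factor, at 381, 325, 151 and 282 CPM against 32.4, 129, 78.1 and 187 CPM (1.23 ± 0.51, adjusted p 0.386). Sf3b1, a core splicing subunit, had 535, 599, 594 and 787 and 335, 541, 234 and 398 CPM (0.55 ± 0.28). Top2a, the topoisomerase of dividing cells, had 556, 408, 299 and 639 and 374, 905, 506 and 658 CPM (-0.56 ± 0.31). Both overlapped between the regions.

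Ltbp1 (chromosome 17, 75005568 to 75392512), the only called gene higher in the dorsal OS, stood at 177, 84.4, 865 and 58.6 CPM there. The 4 axon libraries held 3 counts of it in all (0.111, 0, 0.0596 and 0 CPM). The ratio of the levels was 7394 (exact Poisson 95% interval 2530.2 to 35856), an interval that covers counting error only. Its adjusted p was 0.00444, and 0.0563 with the block. Dorsal control 3 had the highest value and was also the library richest in mesenchyme genes (10677 CPM summed). Dorsal control 1, the second highest for Ltbp1, had the lowest mesenchyme sum of the dorsal libraries (1159.9 CPM). A link between these levels was not tested. Without dorsal control 3 the adjusted p of Ltbp1 was 0.136, in a fit that called 0 genes. In the ventral OS the gene had 0.0511, 3.20, 10.3 and 16.96 CPM, between the other regions in controls 2 to 4.

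Ltbp1 belongs to a list of 18 genes of matrix microfibrils and TGF-beta storage. Of the 16 tested, 15 were higher in the dorsal OS, with a median of 1.57. An unadjusted p under 0.05 was found for 7 (7.4% of all genes tested in this direction), and 5 were without overlap (2.91%). With the block 5 had an unadjusted p under 0.05 (1.59%). Fbn1, fibrillin 1, the core of microfibrils, had 251, 182, 207 and 295 CPM against 20.03, 175, 73.8 and 76.2 CPM without overlap (1.26 ± 0.56, adjusted p 0.386). Ltbp3, a relative of Ltbp1, had 152, 87.3, 41.2 and 94.8 CPM against 0.223, 21.2, 0.179 and 0 CPM (3.96 ± 1.89, adjusted p 0.386). Fbln2, a fibulin of the matrix, had 97.6, 156, 156 and 63.4 CPM against 0, 33.9, 1.25 and 7.60 CPM (3.32 ± 1.51, adjusted p 0.386). All 3 kept the regions apart in every library. Tgfb3, a TGF-beta ligand, had 26.5, 23.3, 53.3 and 1.35 CPM against 0, 0.873, 0.239 and 0 CPM. Ltbp4 was the one member higher in the axon region, at 0.125, 0.0620, 0.295 and 9.96 against 3.12, 27.6, 7.87 and 22.9 CPM. Mfap5, a microfibril protein, had 29.03, 1.43, 0 and 5.18 CPM in the dorsal OS, and Fbln5, an elastic fibre protein, 68.9, 0, 0 and 1.82 CPM. Both had 0 counts in the axon region, and dorsal control 1 held most of their dorsal level.

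Among uncalled genes of at least 20 CPM that were higher in the dorsal OS in 4 of 4 embryos, those with the smallest p-values after Malat1 were Capn6, Gja1, Mpv17, Itm2a and Olfml1. Capn6, a calpain without protease activity, had 4.49, 172, 188 and 26.98 CPM in the dorsal OS and 0 counts in the axon region, at least 605-fold higher (adjusted p 0.170). Olfml1 had 55.6, 71.3, 44.3 and 7.67 CPM and likewise 0 counts, at least 276-fold higher (adjusted p 0.386). In all, 47 of the 15899 genes tested were counted in every dorsal library and in none of the axon libraries, and 4 the other way round. The dorsal libraries also held more genes with at least 1 count, 14132 against 12143 on average, though within their spread. Of all genes tested 9169 had a higher fitted level in the dorsal OS and 6730 in the axon region. Gja1, the gap junction protein connexin 43, had 1213, 713, 236 and 1863 CPM against 71.998, 210.1, 141 and 174 CPM, so the lowest dorsal library lay just above the highest axon library (2.55 ± 0.52, adjusted p 0.217). Itm2a, a membrane protein, had 824, 737, 896 and 1129.9 and 432, 335, 379 and 246 CPM (1.15 ± 0.27, adjusted p 0.386).

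Markers of neighbouring tissues were higher in some dorsal libraries, and their part in the differences above was not tested. In the list of pigment epithelium (RPE) and melanin genes 15 of 17 were tested and 14 were higher in the dorsal OS, with a median of 4.50 and 0 called. In this direction 7 had an unadjusted p under 0.05 (7.4% of all genes tested), and 4 with the block (1.59%). The summed level was 5951, 2076, 90.98 and 6185 CPM in the dorsal OS and 801, 138, 218 and 259 CPM in the axon region. Dorsal control 3 was thus below every axon library, and the other 3 were above. Pmel, the fibril protein of melanosomes, led the sum, at 4117, 1173, 37.6 and 4433 CPM against 298, 19.9, 55.3 and 8.47 CPM (4.42 ± 1.59, adjusted p 0.386). Tyrp1, an enzyme of melanin synthesis, had 87.5, 65.9, 0 and 20.995 CPM and 0 counts in the axon region, and Ttr, transthyretin, 94.02, 18.1, 0 and 14.7 CPM and 0 counts (at least 269.6-fold and 196-fold). Tyr, tyrosinase, had 122, 0, 0 and 43.7 CPM in the dorsal OS and 1 count in the axon libraries, a ratio of 3108 (exact Poisson 95% interval 558 to 122758). The adjusted p of these 3 was 0.386. Otx2, a transcription factor of the RPE, had 48.3, 0, 0 and 64.3 CPM and 0, 0.327, 0 and 0 CPM (8.15 ± 3.58, adjusted p 0.386). Mitf, the regulator of pigment cells, had 173, 50.9, 0 and 156 and 82.2, 28.5, 63.4 and 41.6 CPM (0.58 ± 1.34), and Pax6, of the eye field, 106, 38.96, 47.4 and 53.03 and 91.2, 56.1, 19.3 and 92.7 CPM (-0.25 ± 0.84). Mitf and Pax6 overlapped, and their direction turned in 5 and 3 alternative settings.

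The mesenchyme list (12 of 12 tested) had 11 genes higher in the dorsal OS and a median of 1.57. In the dorsal direction 2 had an unadjusted p under 0.05 (7.4% of all genes tested), and 1 with the block (1.59%). The summed level of the list was 1159.9, 3419, 10677 and 1909 CPM in the dorsal OS and 2564, 414, 1309 and 585 CPM in the axon region. Dorsal control 3 was the richest, and in embryo 1 the axon library was the higher one. Lum, lumican, a collagen-binding proteoglycan, had 196, 427, 691 and 504 and 188, 27.8, 79.02 and 62.7 CPM without overlap (2.12 ± 0.58, adjusted p 0.386). Col1a2, of collagen I, had 157, 562, 1891 and 223 and 398, 131, 218 and 129 CPM (1.51 ± 0.70, adjusted p 0.386). Col3a1, collagen III, had 421, 1143, 4263 and 493 and 873, 161, 586 and 152 CPM (1.63 ± 0.82). Both collagens overlapped.

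Of 8 endothelial genes, all tested, 8 were higher in the dorsal OS (median 4.37, or 4.11 with bounds) and 0 were called. An unadjusted p under 0.05 was found for 2 (7.4% of all genes tested in this direction), and for 0 with the block (1.59%). The 8 genes summed to 297, 402, 368 and 244 CPM against 122, 12.8, 63.2 and 177 CPM, without overlap. Pecam1, a junction protein of vessels, had 57.8, 18.98, 7.02 and 0 CPM and 1 count in the axon libraries, a ratio of 1569 (exact Poisson 95% interval 282 to 61955) (adjusted p 0.386). Tek, a receptor for angiopoietins, had 0, 22.4, 106 and 11.1 CPM and 0, 1.36, 0 and 0 CPM. The mural list (7 of 8 tested) had a median of 1.59 (1.28 with bounds) and summed to 137, 74.9, 219 and 135 CPM against 8.96, 21.9, 87.01 and 29.2 CPM. Acta2, smooth muscle actin, rested on dorsal control 3 (153 CPM), and Kcnj8, a pericyte channel, on dorsal control 4 (57.9 CPM). The defining mural gene Myh11 held 1 count in the 8 libraries.

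Blood and glial cell lists overlapped between the regions. Erythroid genes (8 tested, median 0.31) summed to 2216, 728, 24343 and 2847 CPM in the dorsal OS and 2650.2, 4476, 9015 and 4328 CPM in the axon region, with dorsal control 3 highest. The adult beta-globin Hbb-bs had 66.6, 269.7, 5353 and 676 and 571, 1026, 614 and 452 CPM, and its direction turned in 7 alternative settings. Microglia and macrophage genes (8 tested, median -0.76) summed to 14.9, 190.3, 80.7 and 6.93 and 0, 326, 203 and 68.3 CPM, and 0 of 8 were higher in the dorsal OS. C1qb, of complement, had 0, 41.7, 0 and 0 and 0, 103, 56.1 and 32.4 CPM, and Csf1r, the macrophage growth factor receptor, was counted in axon control 3 alone. Neural crest melanoblast genes (6 of 7 tested, median 0.69) included Mlph, which transports melanosomes, at 11.3, 16.2, 0 and 8.14 CPM with 1 count in the axon libraries, a ratio of 667 (exact Poisson 95% interval 119.7 to 26333) (adjusted p 0.386). In the oligodendrocyte precursor list only Pdgfra, Sox10 and Cspg4 were tested (median -0.34). Sox10, shared with the crest list, was counted mainly in dorsal control 2 and axon control 1 (20.6 and 21.2 CPM).

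**Figure D3:**
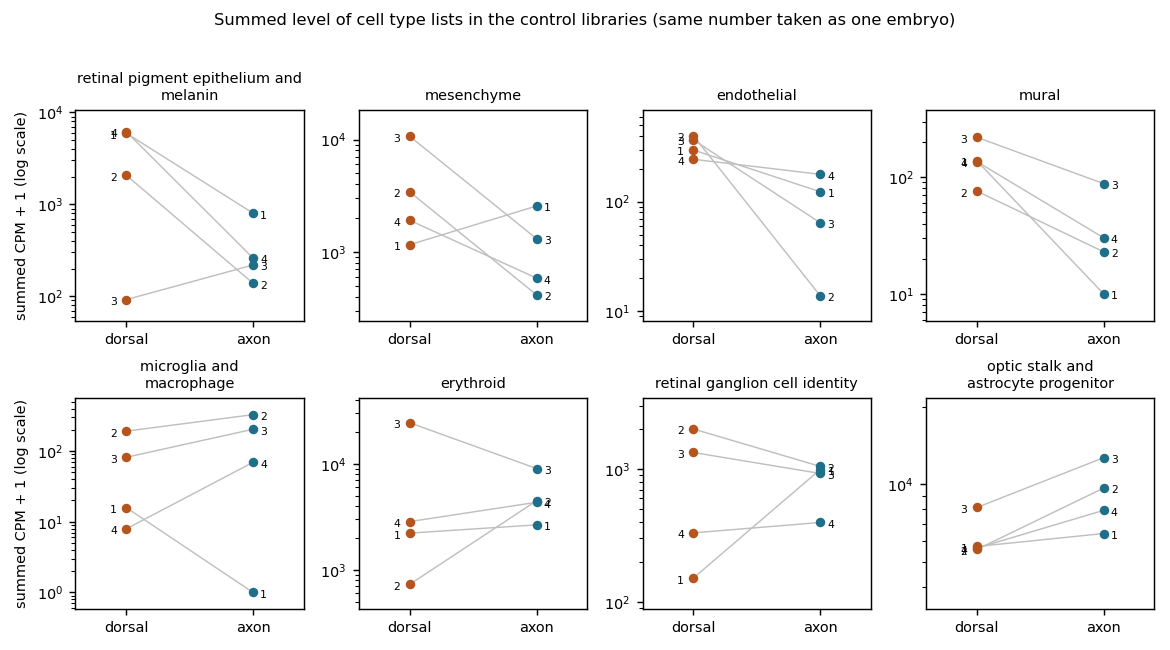
Summed level of 8 cell type lists in each control library (CPM + 1, log axis), with dorsal and axon libraries of one embryo number joined. Dorsal control 3 lies lowest for the RPE and melanin list and highest for the mesenchyme and erythroid lists, and the endothelial and mural points are lower in the axon region in every embryo.

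**Figure D4:**
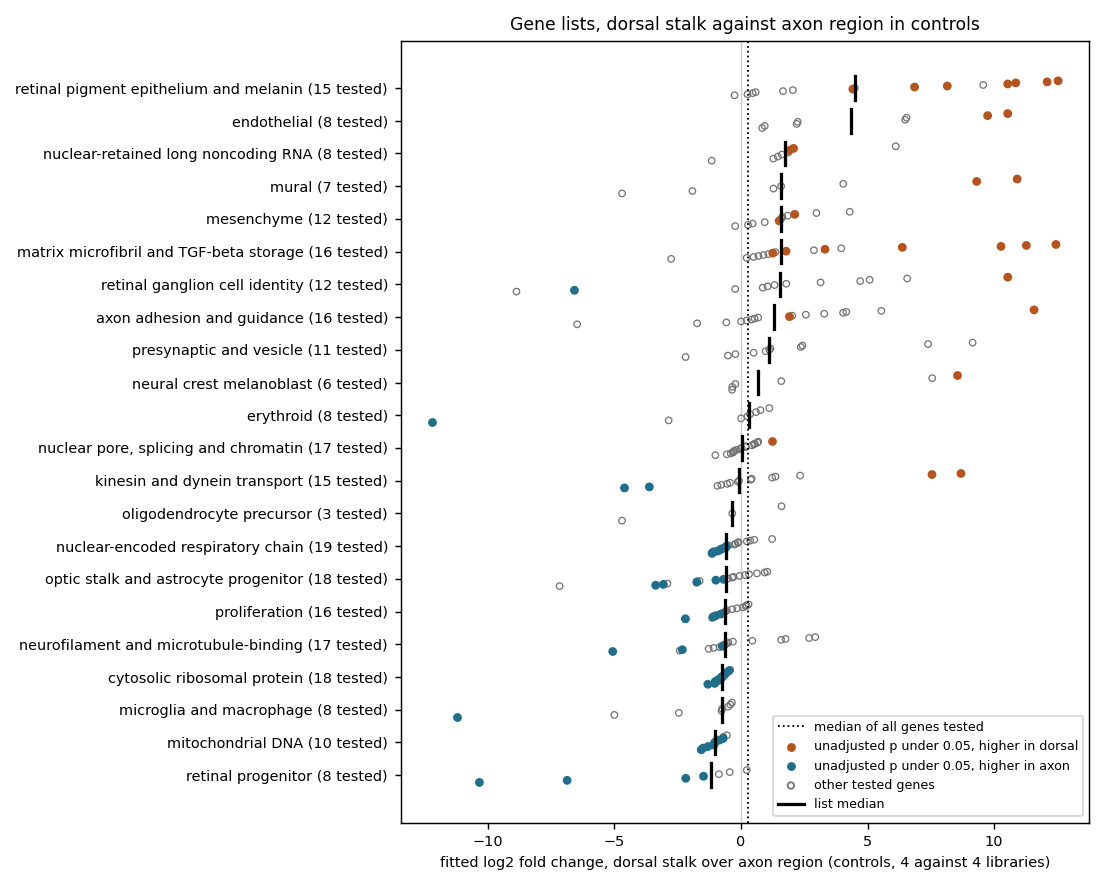
Fitted log2 fold change, dorsal OS over axon region, of every tested gene of the 22 lists (points, filled where the unadjusted p is under 0.05), with each list's median (bar) and the median of all genes tested, 0.29 (dotted line). Values at the far ends belong to genes absent or nearly so from 1 region and are not measured folds, and the ribosomal protein and mitochondrial lists lie wholly below 0.

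The study's chromatin and fate genes were compared as a set of 13, and 0 were called. Smarcc1, the gene deleted in the mutants, had 116, 75.9, 289 and 97.2 CPM in the dorsal OS and 61.9, 50.1, 242 and 143 CPM in the axon region (0.02 ± 0.64, adjusted p 0.998), and its direction turned in 5 alternative settings. Smarcc2, its paralog in the SWI/SNF complex, had 138, 146, 76.2 and 74.6 CPM against 1.78, 28.4, 40.7 and 53.04 CPM, without overlap but with an adjusted p of 0.514. Smarca4, the ATPase of the complex, had 182, 433, 167 and 229 and 272, 247, 255 and 291 CPM (-0.30 ± 0.35). Mmp14, a membrane-bound matrix protease, had 47.8, 74.9, 73.3 and 115 and 53.6, 95.7, 88.9 and 62.2 CPM (-0.16 ± 0.66), and turned in 4 settings. Adam15, another membrane protease, had 0, 26.6, 0 and 26.3 and 0.0556, 0.327, 1.13 and 0.0916 CPM, turned in 2, and shares 20.6% of its exonic bases with neighbours.

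The same regions of the mutants, libraries that the control comparison did not use, were fitted separately. There 86 of 15780 genes were called, 61 higher in the axon region (0.387%) and 25 in the dorsal OS (0.158%). Of the 11 genes called in controls 10 had the same sign in mutants and 8 were called. How many of all genes tested had the same sign in both was not counted. With the block 42 genes were called in mutants, among them 8 of the 11, with mt-Rnr2 (adjusted p 0.0291) and without Fabp7 (0.0552). Without the block Nes had a log2 fold change of -4.18 (adjusted p 6.18e-05), Trp53inp2 of -4.51 (adjusted p 1.57e-04), Fabp7 of -3.22 (adjusted p 0.00382) and Ccnd2 of -2.50 (adjusted p 1.45e-05). The 3 not called were mt-Rnr2 at -1.22 (adjusted p 0.0855), Kif1a at -3.77 (adjusted p 0.123) and Ltbp1 at -0.79 (adjusted p 0.973). Ltbp1, nearly absent from the control axon region, stood at 29.1 ± 27.5 CPM in the dorsal OS and 44.6 ± 56.997 CPM in the axon region of mutants (SD, n = 5 each). Gja1 was called in the dorsal direction in mutants, at 2.53 (adjusted p 0.00136), and Malat1 was not, at 0.81 (adjusted p 0.295).

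Whether the regional difference of controls differed from that of mutants was tested as an interaction over all 27 libraries with batch as a term. Of 16330 genes 4 passed (0.0245%), 2 with the embryo as a block, and 0 of the 11 did (smallest adjusted p 0.233). The 4 were named after their values were seen. Ptn, pleiotrophin, a growth factor of glial progenitors, had a median of 1749 CPM (1302 to 2364) in the control dorsal OS and 2234 CPM (1159 to 2328) in the control axon region. In mutants these were 326 CPM (157 to 921) and 2529.7 CPM (1408 to 4177). The regions of controls thus overlapped and those of mutants did not, with an interaction of 2.68 ± 0.34 (SE, log2; adjusted p 2.47e-04). Sparc, a collagen-binding matrix protein, had an interaction of 1.90 ± 0.28 (adjusted p 0.00240). Its medians were 1977 and 1329 CPM in the dorsal OS and axon region of controls and 1091 and 2725 CPM in those of mutants. Pdk2 and Rilpl2 also passed (adjusted p 0.00522 and 0.0309), but not with the block (0.0997 and 0.183), and both had 0 counts in every mutant axon library.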

How the data were processed

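RNA was measured in 27 laser-captured pieces of the E14 mouse OS, and the 8 control libraries of the dorsal OS and the RGC axon region were compared. The authors deposited 1 table of unscaled read counts by gene. Per the labels and the study's methods, STAR aligned the single-end reads (mm10) and HTSeq made the counts, and the labels also name Salmon. Their versions, the gene annotation used and the strand option are not given in the sources used here, and the library kit does not mark strand, so reads of overlapping genes cannot be told apart. The reads carried no molecular identifiers, so intervals and floors cover counting error only. Of 55487 gene identifiers 55227 matched GENCODE M21, which gave symbols and positions. No pair of libraries held identical counts (0 pairs), and 0 columns lacked a sample.

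CPM values are counts per M counts of the library, and a gene at 0 may lie at up to 3 counts (0.125 to 0.202 CPM). A fold against a region whose 4 libraries are all at 0 is a lower bound against that floor per library. The study's filter, over 10 counts in 3 or more of all 27 libraries, kept 16330 genes, and 15899 of them had counts in the 8 libraries. edgeR 4.0.16 (R 4.3.3; quasi-likelihood F-test, two-sided, robust, legacy setting, TMM) gave fold changes and Benjamini-Hochberg adjusted p-values. Standard errors were derived from the F statistic. DESeq2 1.42.0, limma 3.58.1 and other settings were alternatives, and the fits were tested on simulated data. Library shares were compared by exact permutation tests. For the principal components the 1000 most variable genes were used.

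Same-numbered libraries were taken as one embryo, following the study's account that each embryo gave its regions. The deviations of same-numbered libraries from their group means correlated at -0.02 to 0.07 over 7706 genes. Those of differently numbered libraries correlated at -0.07 to 0.06, so these values do not show which libraries came from one embryo. The values with the embryo as a block are given beside the results.

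Named genes were every called gene, the 6 uncalled genes per direction with the smallest p among those of at least 20 CPM with the same sign in 4 of 4 pairs, the 3 genes of each of 22 lists with the smallest p, and 13 genes that the study discusses. Other members of the lists, and the interaction genes, were named after their values were seen. The groups compared, the lists and the members were chosen with earlier results of these data known.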

Additional observations from a re-analysis of the deposited data

Results flagged for a closer look

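Of 213 groups of 4 control libraries (the named genes, list sums and library measures by region, genes and lists on the log2 scale) 25 held a library far from the other 3 by Dixon's ratio, or 11.7%. Chance gives about 1 in 20 for normally distributed values. Several of the 25 had 3 libraries at 0, where any count in the remaining one gives the highest ratio. That rate does not apply to them. The regional difference differed between controls and mutants for Ptn (adjusted p 2.47e-04), Sparc (0.00240), Pdk2 (0.00522) and Rilpl2 (0.0309) in edgeR's interaction test, and for none of the genes chosen by the naming rule.

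In the dorsal OS the summed astrocyte progenitor list stood at 8117 CPM in control 3, and Esam (40.9 CPM) and Acta2 (153 CPM) were far higher there than in the other 3, while Pax2 (0.826 CPM) was far lower. Control 2 stood apart for C1qb (41.7 CPM), Cx3cr1 (0.682), Erbb3 (48.1), Sox10 (20.6) and Syn1 (17.4), which were at or near 0 in the others. Control 1 stood apart for Fgf15 (5.32 CPM), Sncg (21.3) and Hbb-bh1 (17.3), and control 4 for Kcnj8 (57.9) and, as the lowest, Mpv17 (191). Rilpl2 was lowest in control 1 (0.624).

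In the axon region control 4 was lowest for the summed RGC identity list (394 CPM), Sncg (122 CPM) and Ndufb8 (692), and control 3 for Rian (2.68). Ptn (1159 CPM) was lowest in control 1. Far from the other 3 libraries, which were at 0, stood Thy1 (12.3 CPM), Tek (1.36) and Otx2 (0.327) in control 2, Csf1r (56.3) in control 3 and Sox10 (21.2) in control 1. What set these libraries apart was not tested.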

How the results depend on the processing

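The number of genes called between the dorsal OS and the axon region in controls, 11, depended on the fit. It was 2 with the embryo as a block (replicate block), 1062 with DESeq2 and the block, 61 with limma voom and a random block, 33 without the count filter, 39 with the newer edgeR dispersion setting, 561 with DESeq2, 52 with limma voom, 17 with all 12 control libraries, 73 with all 27 and 6 within batch B. The 561 split into 470 dorsal-high and 91 axon-high genes, the 52 into 44 and 8, and the 39 into 8 and 31. In 270 of the 470 the 4 axon libraries were at 0. DESeq2 gave 3166 genes no adjusted p. The cause of these shifts was not tested. Without 1 library the count ranged from 0 (dorsal control 3, where all 11 calls were lost) to 10. It was 5 without axon control 1 or dorsal control 4 and 6 without axon control 3. With the block and without 1 embryo it was 0 to 1. In the 8 fits without 1 library, Kif1a, Fabp7, Ltbp1, mt-Rnr1 and mt-Rnr2 lost the call in 1 fit each, Trp53inp2 in 4, Nes, Cox6a1 and Ccnd2 in 6, Ftl1 in 7 and Fth1 in 8. No alternative turned the direction of any of the 11. List medians crossed 0 for the kinesin and dynein (-0.45 to 0.56), erythroid (-1.80 to 0.74), melanoblast (-0.87 to 5.29), nuclear pore and splicing (-0.10 to 0.22) and oligodendrocyte precursor (-5.32 to 4.07) lists, and for no other.

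The 4 interaction genes became 2 with the block and 69 without the count filter, and 3 to 10 without 1 library (8 without mutant axon 3 or 5, and 10 without mutant axon 4). The 86 genes called in mutants became 42 with the block and 59 to 94 without 1 library. As pairs the difference in mitochondrial share, -5.74 percentage points, had an exact permutation p of 0.125, the smallest possible, and without 1 library it was -6.48 to -4.24. The difference in genes detected, 1278 to 3073 without 1 library, did not pass in any setting. With 4 libraries a region, counting depth limits genes near 3 counts, and fewer cells or less RNA per cell cannot be told apart.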
